A study of Mus musculus with 2 samples.

Results

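Expression of 10 target genes of the transcription factor p53 was followed gene by gene in thymic epithelial cells (TECs) by droplet single-cell RNA-seq. The genes were Cdkn1a, Ccng1, Mdm2, Phlda3, Zmat3, Trp53inp1, Aen, Bax, Bbc3 and Pmaip1, taken by name out of 32285 genes in the count matrices. CD45-TER119-EpCAM+ cells had been sorted from female C57BL/6 mice, either untreated or 15 days after a sublethal whole-body dose of 5.5 Gy of γ-rays given at 7 weeks of age, and each library was a pool of 3 mice, with 1 library per condition. Cells with more than 2000 and fewer than 7500 detected genes and under 15% mitochondrial unique molecular identifiers (UMIs, one per captured RNA molecule) were kept. This left 3233 cells in the smaller library and 5070 cells in the larger library.

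The 2 libraries carry contradictory names. By the sample labels of the deposit the smaller library is the irradiated one and the larger library the control. The names of the matrices, and the cell numbers given for each condition by the study, say the opposite. The expression of p53 targets was not used to settle this. The libraries are therefore called smaller and larger throughout, and every difference is given as larger over smaller: it reads as irradiated over control by the matrix names and as control over irradiated by the sample labels. With 1 library per condition no difference between libraries can be tested against the variation between mice, so no p-values are given, and the 95% intervals (exact Poisson for levels, exact Clopper-Pearson for shares) cover counting error only. The labels also disagree with each other on age (9 weeks among the sample characteristics, 4 weeks in the protocol).

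Over all kept cells the depth was alike in both libraries. Within each of the 10 clusters compared below, the median UMIs per cell were lower in the larger library, as in C7 (29473.5 in the smaller and 23184 in the larger library). The kept cells held 51586327 UMIs in the smaller library and 75542631 in the larger library, with a median of 13412 and 13003.5 UMIs per cell and a median mitochondrial share of 5.97% and 5.98%. Among the kept cells 5 barcodes occurred in both libraries. A set of 17 genes that respond to tissue handling (Fos, Jun, Atf3, Hspa1a and others) stood lower in the larger library without exception, with a summed level of 117 UMIs per 10000 in the smaller and 68.2 in the larger library. Values over strata of the stress genes' share of UMIs (in tertiles) are given beside some of the results. The libraries can still differ in stress level within a tertile.

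p53 is a transcription factor that accumulates after DNA damage, when ATM- and ATR-dependent kinases release it from its ubiquitin ligase, the Mdm2 protein. It binds pairs of a 10-base motif near its targets. Some of these targets stop the cell cycle, some promote apoptosis and some feed back on p53 itself. Medullary TECs (mTECs) divide as transit-amplifying cells (TA-mTECs), pass through a stage that expresses Aire, the regulator of ectopic self-antigens, and then turn into several Post-Aire types, among them tuft-like cells. Cortical TECs (cTECs) form the other main lineage.

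Binding motifs found within the 250 bases before a start site are shown for 4 of the genes. Promoter sequence from RefSeq (GRCm38.p6, the build of the mm10 genome used for the counts) was found for 7 of the 10 genes, in 11 start-site windows, and the 250 bases before each start were searched on both strands for the p53 decamer consensus. The decamer was present in 5 of these 11 windows, against 7.13% of 32851 windows over all genes. A pair of decamers with at most 1 mismatch to the consensus and a spacer of at most 13 bases was present in 3 of the 11 windows (Cdkn1a, Ccng1 and Bax), against 0.898% of all windows. In the sequences, which read 5′ to 3′ on the strand of the gene, capitals mark the pair, or for Mdm2 the single decamer.
Cdkn1a, chr17:29090908-29090967, plus strand, pair starting 51 bases before the start site: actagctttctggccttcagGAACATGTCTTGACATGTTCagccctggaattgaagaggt
Ccng1, chr11:40755442-40755501, minus strand, pair starting 195 bases before the start site: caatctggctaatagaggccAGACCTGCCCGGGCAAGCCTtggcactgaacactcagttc
Bax, chr7:45467070-45467130, minus strand, pair starting 212 bases before the start site: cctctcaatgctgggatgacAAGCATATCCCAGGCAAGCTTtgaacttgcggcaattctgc
Mdm2, chr10:117710915-117710964, minus strand, decamer starting 186 bases before the start site: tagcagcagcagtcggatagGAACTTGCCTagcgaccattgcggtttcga
The pairs shown for Cdkn1a, Ccng1 and Bax each have 1 mismatch. The Cdkn1a pair lay before the start at 29090979. That window also held a second decamer, not in capitals, which makes a pair without mismatch with the first. A pair without mismatch was present in 1 of the 11 windows, against 0.0639% of all windows. The window of the other Cdkn1a start, at 29093769, held no decamer. A further decamer, not shown, started 121 bases before 1 of the Aen starts, and none was found in these windows for Phlda3 and Bbc3. A match in these letters is a description and not a measured binding site. In GENCODE M21, 9 of the genes span chr17:29090976-29100727 (Cdkn1a), chr11:40748552-40755311 (Ccng1), chr10:117688875-117710758 (Mdm2), chr1:135766119-135769136 (Phlda3), chr3:32334792-32366014 (Zmat3), chr4:11156431-11174379 (Trp53inp1), chr7:78895854-78911209 (Aen), chr7:45461697-45466898 (Bax) and chr7:16308393-16318205 (Bbc3).

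Cells were grouped without the 10 genes, so that a cluster could not be defined by them. The 13 clusters are numbered C0 to C12 by size, and the 10 with at least 100 cells in each library (C0 to C9) were compared. C2 was Post-Aire mTEC-like (Spink5, Pigr, Muc13, Ccl9), C3 was Pdpn+ TEC-like (Ackr4), C5 was cTEC-like (Psmb11, Prss16), C6 was Aire+ mTEC-like (12.1 UMIs of Aire per 10000), C7 and C8 were TA-mTEC-like with genes of DNA replication and of mitosis in the lead, and C9 was tuft-like (Avil, Trpm5). C2 also held Aire at 3.56 UMIs per 10000. Its summed Aire+ mTEC markers were at 121.3 and 129.4, above the 108.1 and 108.3 of C6. The study gives the name Late-Aire to a cluster with less Aire than its Aire+ mTECs, and whether C2 matches it was not tested. C0, C1 and C4 keep their numbers. C0 held most Ccl21a (118 UMIs per 10000), the chemokine of Ccl21a+ mTECs, but Ccl11 and collagen genes led it. Its summed Pdpn+ TEC markers (63.3 and 60.5 UMIs per 10000) lay near the 67.7 and 56.1 of C3. The name of C3 therefore does not set it apart from C0 by these markers. C3 also held fibroblast genes (18.6 and 9.78), and whether it mixes cell types was not tested. C1 held Aire at 11.04 per 10000 and was led by S100a8 and S100a9. Its summed Aire+ mTEC markers (144.0 and 143.7 UMIs per 10000) lay above those of C2 and C6. The name of C6 therefore does not set it apart from C1 as Aire-expressing. C4 had Ccl21a at 55.3 per 10000 and was led by Matn1. Thymocyte genes reached 35.0 and 34.5 UMIs per 10000 in C10 and at most 2.13 in C0 to C9, and whether C10 holds doublets was not tested.

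Among the clusters compared, Cdkn1a, which encodes the cyclin-dependent kinase inhibitor p21, was highest in Post-Aire mTEC-like and tuft-like cells and low in dividing cells. In Post-Aire mTEC-like cells it stood at 4.48 UMIs per 10000 (interval 4.34 to 4.64) in the smaller and 5.72 (5.55 to 5.89) in the larger library, and in tuft-like cells at 4.18 (3.92 to 4.45) and 4.55 (4.24 to 4.88). The level in the replicating cluster C7 was 0.261 (0.212 to 0.319) and 0.935 (0.867 to 1.01). The ratio of C2 over C7 was 17.2 in the smaller and 6.12 in the larger library. In order of the mean level, C2 and C9 came first, with intervals that overlapped in the smaller and were apart in the larger library, followed by C1, C6, C4 and C5. The dividing clusters C7 and C8, C3 and C0 had the lowest means. The order differed within single libraries. In the smaller library C6 had 0.451, below C0 with 0.580, and in the larger library C0 was lowest with 0.655. The 37 cells of C12, which expressed genes of ciliated cells, reached 10.6 (9.52 to 11.8) and 9.22 (8.19 to 10.4). C12 also held fibroblast genes (20.1 and 16.0 UMIs per 10000) and endothelial genes (3.42 and 0.0958), and whether it mixes cell types was not tested.

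Ccng1, which encodes cyclin G1, had no cluster set apart from the rest. Its mean was highest in cTEC-like cells, with 0.954 UMIs per 10000 (0.840 to 1.08) in the smaller and 1.31 (1.22 to 1.41) in the larger library, and lowest in C7, with 0.388 (0.327 to 0.457) and 0.579 (0.526 to 0.636). None of the 9 steps between neighbouring clusters in its order exceeded the intervals in both libraries.

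Mdm2, the ubiquitin ligase that restrains p53, was set apart by a single cluster. Post-Aire mTEC-like cells had 1.897 UMIs per 10000 (1.801 to 1.996) and 1.96 (1.86 to 2.06), above the next cluster, C1, with 1.01 (0.947 to 1.07) and 1.06 (1.01 to 1.12). All further clusters lay between 0.511 and 1.04. The cells of C12 had 3.12 and 2.65.

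Phlda3, a repressor of AKT signalling, had a distribution unlike that of Cdkn1a. It was highest in Pdpn+ TEC-like cells (4.57 and 4.98 UMIs per 10000), in C0 (4.02 and 4.03) and in cTEC-like cells (3.45 and 4.31). The tuft-like cells, which were high in Cdkn1a, had only 0.776 (0.666 to 0.899) and 0.795 (0.669 to 0.939). Across the 20 points of 10 clusters in 2 libraries, the Pearson correlation of Phlda3 with Cdkn1a on the log2 scale was -0.05, and that of Mdm2 with Cdkn1a was 0.74. These points share libraries and depth and are given as a description.

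Zmat3, an RNA-binding protein, was highest in C1 with 0.610 UMIs per 10000 (0.563 to 0.659) and 0.584 (0.543 to 0.627). This was 2.84 and 2.09 times the level in all other cells of the same library. Its lowest values were in C0 (0.125 and 0.154).

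Trp53inp1, a nuclear protein that promotes p53 activity and autophagy, kept no common order in the libraries, with a Spearman correlation of 0.21 between them over the 10 clusters. It was highest in tuft-like cells in the smaller library, at 0.995 (0.870 to 1.13), where the larger library had 0.608 (0.498 to 0.735). In the larger library Pdpn+ TEC-like cells were highest, at 1.06 (0.957 to 1.17). Above all of these lay the C12 cells (2.28 and 3.67) and the C10 cells (1.39 and 1.94), which were not among the clusters compared.

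Aen, an apoptosis-enhancing nuclease, was highest in cTEC-like cells (0.400 and 0.516 UMIs per 10000) and lowest in tuft-like cells in mean level (0.158 and 0.222). Its intervals overlapped at each of the 9 steps of the order in at least 1 library.

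Bax, the pore-forming effector of mitochondrial apoptosis, was highest in Aire+ mTEC-like cells, with 4.94 UMIs per 10000 (4.73 to 5.16) in the smaller and 6.85 (6.65 to 7.05) in the larger library. C1 followed with 3.77 (3.65 to 3.89) and 5.31 (5.18 to 5.43), and then C7 with 2.76 and 3.49. Pdpn+ TEC-like cells had the lowest values (1.44 and 1.82). The order of the clusters was nearly the same in both libraries (Spearman correlation 0.98).

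Bbc3 (PUMA) and Pmaip1 (NOXA) are BH3-only proteins that act upstream of Bax. Among the clusters compared, Bbc3 ranged from 0.0921 to 0.418 UMIs per 10000 and was highest in C1, C6 and C2. Pmaip1 showed the widest range of all. It stood at 1.2499 (1.17 to 1.33) and 1.020 (0.951 to 1.09) in Post-Aire mTEC-like cells and at 0.0139 (0.00511 to 0.0303) and 0.0105 (0.00287 to 0.0270) in Pdpn+ TEC-like cells, where 6 and 4 UMIs were counted in all. In cTEC-like cells it was at 0.0264 and 0.0212, and in C0 at 0.0574 and 0.0337. The 42 cells of C11, which expressed neuroendocrine genes (Scg2, Chgb) and were not among the clusters compared, had more Pmaip1 (1.73 and 1.09). The leading 3 clusters of Bbc3 did not differ beyond their intervals in both libraries.

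**Figure D1:**
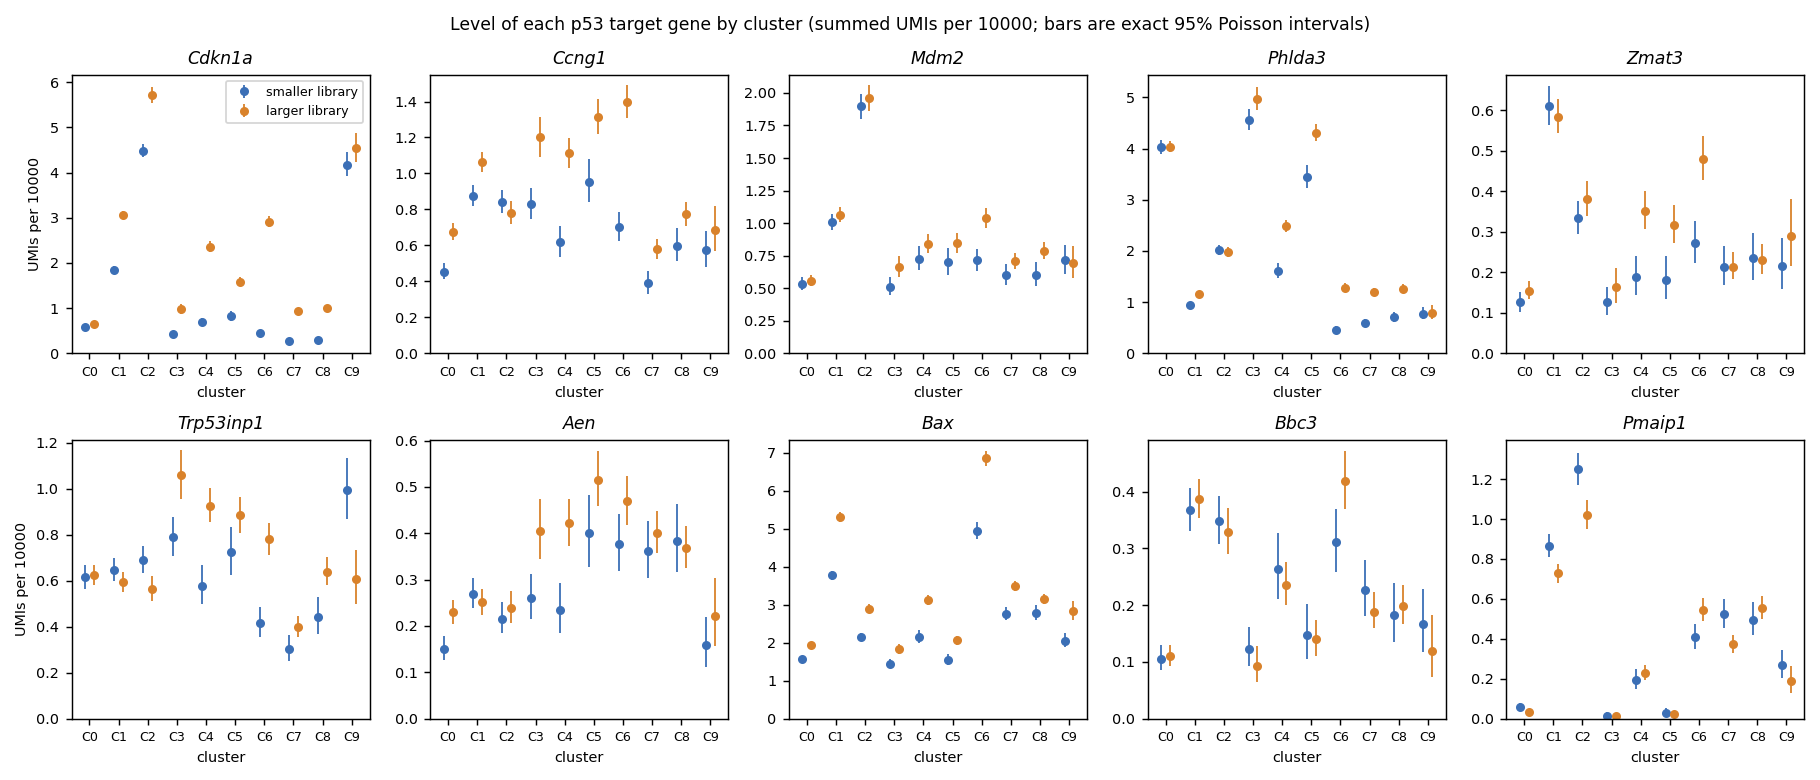
Level of each gene (y axis, summed UMIs per 10000, each panel on its own scale from 0) in clusters C0 to C9 (x axis), with the smaller library in blue and the larger in orange and exact 95% Poisson intervals as bars. Cdkn1a is high in C2 and C9, Phlda3 in C3, C0 and C5, Bax in C6 and C1, and Pmaip1 in C2 and C1 with values close to 0 in C0, C3 and C5.

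Counted over all 10 genes and 10 clusters, 9 of 100 gene-cluster combinations were at least 2-fold above all other cells in both libraries, where the background over all 16986 genes with at least 100 UMIs was 6.77%. A further 14 of 100 were at least 2-fold below, against a background of 25%. The 9 high combinations were Cdkn1a, Mdm2 and Pmaip1 in C2, Zmat3 and Pmaip1 in C1, Phlda3 in C0 and C3, Bax in C6, and Cdkn1a in C9. Cdkn1a in C2 was 4.09 and 3.16 times the level of all other cells, and Pmaip1 in C2 was 3.37 and 3.09 times.

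Between the libraries, over all kept cells, 4 of the 10 genes stood at least 25% higher in the larger library, where 5.02% of all 16986 genes did. In what follows a gene is past the limit when the level of one library is at least 25% above that of the other. Cdkn1a was at 1.61 UMIs per 10000 in the smaller and 2.21 in the larger library (log2 ratio 0.46, interval 0.41 to 0.51). Bax was at 2.56 and 3.42 (0.42, 0.38 to 0.46), Ccng1 at 0.710 and 0.942 (0.41, 0.33 to 0.49) and Aen at 0.264 and 0.340 (0.37, 0.23 to 0.50). The larger library, higher in these genes, is the irradiated one by the matrix names and the control by the sample labels. Phlda3 (0.19), Zmat3 (0.17) and Trp53inp1 (0.17) were higher by less than the limit, with intervals above 0. The intervals of Mdm2 (0.05, -0.02 to 0.13) and Bbc3 (-0.02, -0.17 to 0.13) held 0. Pmaip1 alone was lower past the limit, at 0.504 in the smaller and 0.401 in the larger library (log2 ratio -0.33, -0.44 to -0.22), where 19.2% of all genes were lower. The median log2 ratio was 0.18 over the 10 genes and -0.05 over all genes.

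The share of each cell type differed between the libraries, which enters these totals. Post-Aire mTEC-like cells, highest in Pmaip1 and Cdkn1a among the clusters compared, made up 15.5% of the smaller and 11.3% of the larger library. The dividing clusters C7 and C8 made up 3.84% and 3.25% of the smaller and 6.25% and 5.64% of the larger library. With both libraries set to the same cluster composition, the log2 ratio of Cdkn1a was 0.66 in place of 0.46 and that of Pmaip1 -0.21 in place of -0.33, which is no longer past the limit. With strata of cluster and of the stress genes' share of UMIs (in tertiles, chosen after seeing the data) the log2 ratios were 0.84 and -0.07.

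Within clusters the difference was uneven. In Aire+ mTEC-like cells (C6), 9 of the 10 genes were past the limit, all higher in the larger library, against a background of 8.43% of 8557 genes. Cdkn1a stood at 0.451 UMIs per 10000 (0.388 to 0.521) in the smaller and 2.92 (2.79 to 3.05) in the larger library, a ratio of 6.47 (log2 2.69, 2.42 to 2.98). Phlda3 was at 0.456 and 1.28 (log2 1.49), Ccng1 at 0.702 and 1.40 (0.99), Trp53inp1 at 0.416 and 0.780 (0.91), Zmat3 at 0.271 and 0.479 (0.82) and Mdm2 at 0.714 and 1.04 (0.54). Bax (0.47), Bbc3 (0.43) and Pmaip1 (0.42) were past the limit with intervals above 0, and Aen (0.31, -0.08 to 0.71) was not. Within C6 the summed markers of Aire+ mTECs were at 108.1 in the smaller and 108.3 UMIs per 10000 in the larger library. The 13 TA-mTEC markers were at 6.44 and 8.16, and the 4 erythroid genes at 0.0320 and 0.268. The stress genes were at 77.2 and 56.3 and the median depth was 25279 and 18777.5 UMIs per cell. Over strata of stress level within C6 the log2 ratio of Cdkn1a was again 2.69. The calls of Bbc3 and Pmaip1 in C6 ended under 2 and 3 other settings.

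The other clusters had lower counts. In C3 7 of 8 genes tested (background 12.9%) and in C4 7 of 10 (7.96%) were past the limit in the same direction. The counts were 5 of 9 in cTEC-like cells (8.75%) and 5 of 10 in each of the dividing clusters C7 (9.79%) and C8 (11.9%). The lowest counts were 2 of 9 in C0 (6%), 2 of 10 in C1 (8.72%), 2 of 10 in Post-Aire mTEC-like cells (7.11%) and 2 of 7 in tuft-like cells (11%). C1 also held Aire (11.04 UMIs per 10000), so the count in C6 does not extend to all cells that express Aire. Over all 10 clusters 46 of 93 combinations with at least 100 UMIs were higher past the limit in the larger library (background 9.05%) and 2 were lower (10.8%). Among the 46, the counting intervals of Zmat3 in C3 and C9, Aen in C5 and Trp53inp1 in C7 held 0. The stress genes differed most in C3 (177 UMIs per 10000 in the smaller and 72.0 in the larger library) and C0 (186 and 89.1). Whether the stress difference is related to the counts was not tested. Over strata of stress level within clusters, 43 of the 46 higher and both lower combinations stayed past the limit. Over 16 settings in all, 34 of the 46 stayed past it in each setting that gave a value and 45 kept their direction. The exception was Mdm2 in C8, which was at -0.12 after thinning.

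Cdkn1a was higher past the limit in 8 of 10 clusters. After C6 the log2 ratio was 1.84 (1.44 to 2.25) in C7, 1.81 (1.38 to 2.25) in C8, 1.79 (1.53 to 2.06) in C4, 1.20 (0.84 to 1.56) in C3 and 0.95 (0.67 to 1.248) in cTEC-like cells. The shares of cells with a Cdkn1a UMI after thinning overlapped in C7 (6.93% to 19.2% and 13.3% to 22.0%) and C8 (8.22% to 22.5% and 16.7% to 26.5%). The log2 ratio was 0.73 in C1 and 0.35 in C2, and the intervals held 0 in C0 (0.17, -0.05 to 0.40) and in tuft-like cells (0.12, -0.07 to 0.32). The value in C4 was 0.88 when the libraries were merged without integration, and that in C2 fell under the limit in 4 of 16 settings (0.26 at the lowest).

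**Figure D2:**
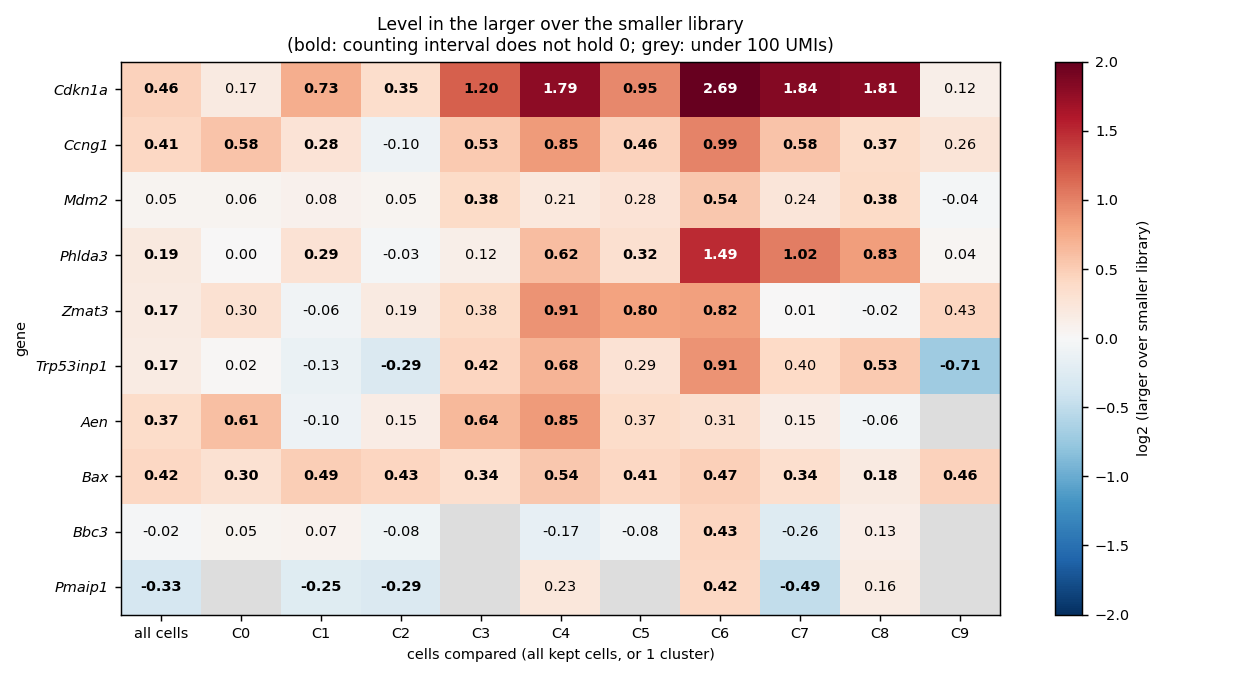
log2 ratio of the larger over the smaller library for each gene (rows) over all kept cells and within clusters C0 to C9 (columns), with red for higher and blue for lower in the larger library and the colour scale ending at 2. Values in bold have a counting interval that does not hold 0, and grey fields have under 100 UMIs. The Cdkn1a row runs from 0.12 in C9 to 2.69 in C6, and the Bax row stays between 0.18 and 0.54.

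Bax had an even difference, with a log2 ratio between 0.18 and 0.54 in the 10 clusters and an interval above 0 in each. Ccng1 was past the limit in 7 of 10 clusters, with its largest values in C6 and C4 (0.85). It was not different beyond counting error in C2 (-0.10, -0.33 to 0.12) and C9. For Phlda3 the log2 ratio was 1.49 in C6, 1.02 in C7 and 0.83 in C8. It was 0.00 (-0.08 to 0.09) in C0 and 0.12 (-0.01 to 0.25) in C3, which have most of it, and 0.04 (-0.43 to 0.50) in tuft-like cells, which have least in mean level. Zmat3 was past the limit in 5 clusters, with an interval above 0 in C4 (0.91), C6 and C5 (0.80). Mdm2 was past it in C6, C3 and C8, the last 2 at 0.38 each.

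Trp53inp1 and Pmaip1 did not move one way. Trp53inp1 was higher past the limit in 5 clusters and lower in tuft-like cells, where it was at 0.995 and 0.608 (log2 ratio -0.71, -1.19 to -0.24, background 13.1%). The log2 ratio was -0.12 when the libraries were merged without integration, and the thinned shares of positive tuft-like cells overlapped, at 25% (18.3 to 32.7) and 21.6% (15.3 to 29.1). Its interval was also below 0 in C2 (-0.29). Pmaip1 was higher in C6 and lower in C7 (-0.49, -0.87 to -0.11, background 7.95%), at 0.23 to 0.52 in C6 and -0.60 to -0.24 in C7 over other filters and clusterings. Its intervals were also below 0 in C1 (-0.25) and C2 (-0.29), the 2 where it is highest among the clusters compared. Bbc3 was past the limit in C6 alone of the 8 clusters in which it could be tested.

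Shares of positive cells depend on depth, so each cell was thinned to 4000 UMIs, which left out 5 cells of the larger library. After thinning, 24.5% (23.0 to 26.0) of the cells of the smaller and 30.5% (29.3 to 31.8) of the larger library had a Cdkn1a UMI, where the unthinned values were 40.4% and 46.8%. Bax was found in 53.1% and 62.3%, Ccng1 in 22.1% and 27.6% and Aen in 8.75% and 11.4%. The intervals of these 4 genes were apart, as were none of the other 6: the shares of Phlda3 were 49.1% and 52.2%, of Mdm2 25.9% and 26.9%, of Trp53inp1 20.3% and 21.7%, of Zmat3 10.1% and 11.2%, of Pmaip1 11.6% and 9.77%, and of Bbc3 9.25% and 7.92%. How many of all genes had shares apart at this depth was not counted. Whether the number among the 10 genes is unusual therefore cannot be told.

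As a yardstick for free RNA, Psmb11, a cTEC gene, was found at the same depth in 69.8% and 68.4% of cTEC-like cells and in 1.32% and 0.676% of tuft-like cells. Prss16, a more abundant cTEC gene (3.48 and 6.41 UMIs per 10000 over each library), was found in 8.55% and 9.46% of tuft-like cells. The tuft gene Avil was found in 0.617% and 0% of cTEC-like cells. Pmaip1 lay at this background in C0 (1.59% and 1.42%), C3 (0.787% and 0.843%) and C5 (0% in both). As a floor of 3 cells, a count of 0 of 376 cTEC-like cells in the larger library allows a share of up to 0.798% at this depth, and without thinning 12 Pmaip1 UMIs were found in them. Cdkn1a in C7 was found in 12.1% (6.93 to 19.2) and 17.4% (13.3 to 22.0) of cells, where the interval of the smaller library overlaps that of Prss16 in tuft-like cells (5.27 to 15.4 in the larger library). The Cdkn1a share in C6 of the smaller library, 10.9% (6.59 to 16.7), overlaps it as well, as do those of C0, C4, C5 and C8. The Cdkn1a share in C3 of the smaller library (7.87%), and shares of Zmat3, Aen, Bbc3 and Pmaip1 in several clusters, were under the 9.46% of Prss16. Over each library Prss16 is more abundant than these genes (Cdkn1a is at 1.61 and 2.21 UMIs per 10000). Its share is therefore an upper guide and not their own background. Whether these low shares are expression was not tested. The Cdkn1a ratios in C3 (log2 1.20) and C6 (log2 2.69) have as their base smaller-library cells whose shares lie under or overlap this upper guide.

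In Aire+ mTEC-like cells both the share of cells with at least 1 Cdkn1a UMI and the share with at least 4 differed. At least 1 UMI of 4000 was found in 10.9% (6.59 to 16.7) of 165 cells of the smaller and 37.1% (31.9 to 42.4) of 340 cells of the larger library. At least 4 UMIs were found in 1.21% (0.147 to 4.31) and 12.9% (9.56 to 17.0). These were 2 of the 18 positive cells of the smaller and 44 of the 126 of the larger library. Whether the number of UMIs per positive cell differed was not tested. In C4 the intervals of both shares were also apart, with at least 4 UMIs in 0.461% (0.0117 to 2.54) and 4.62% (2.92 to 6.91). For comparison, the shares with at least 4 UMIs were 6.62% and 10.7% in C1. In Post-Aire mTEC-like cells they were 17.0% and 21.4%, and in tuft-like cells 14.5% and 14.9%. In C7 and C8 no cell of the smaller library (0 of 124 and 0 of 105, for which the floor of 3 cells is 2.42% and 2.86%) and 2.84% and 3.85% of the larger library had 4 or more.

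**Figure D3:**
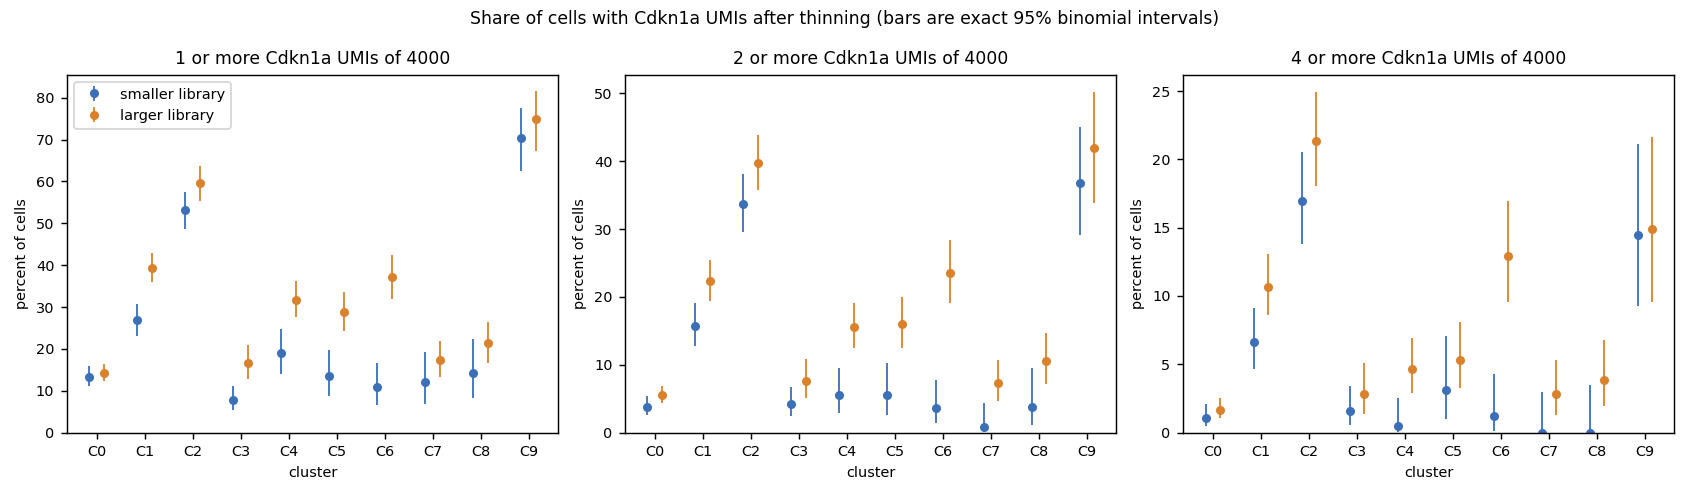
Percent of cells (y axis, each panel on its own scale from 0) with at least 1, at least 2 and at least 4 Cdkn1a UMIs after thinning to 4000 UMIs, in clusters C0 to C9 (x axis), smaller library in blue and larger in orange, with exact 95% binomial intervals. The libraries are apart in all 3 panels in C6 (10.9% and 37.1% with at least 1 UMI) and in C4 (18.9% and 31.7%), and overlap in C0 and C9.

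Cdkn1a UMIs were concentrated in few cells. The 1% of cells with most Cdkn1a held 21.3% of its UMIs in the smaller and 18.1% in the larger library, up to 115 and 188 UMIs in a single cell. Pmaip1 was alike in this (21.7% and 20.9%), whereas the same share of cells held 6.46% and 6.58% of Phlda3 and 7.14% and 7.38% of Bax. After thinning, the variance of Cdkn1a over cells was 5.29 and 6.05 times its mean, and that of Aen 1.06 and 1.09 times.

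Cells high in Cdkn1a carried more of the other targets than their cluster predicts. Cells of each library were grouped by their thinned Cdkn1a count, and the UMIs of the other 9 genes were divided by the number expected if each cell had the mean of its own cluster and library. Over all groups the expected numbers of a gene add up to its observed number. Values below 1 in some groups therefore follow from values above 1 in others. In cells with no Cdkn1a UMI, Ccng1 was at 0.847 times (0.779 to 0.919) its expected number in the smaller and 0.758 times (0.712 to 0.807) in the larger library. In the 173 and 372 cells with 4 or more, it was at 2.03 times (1.67 to 2.43) and 2.27 times (2.03 to 2.53). Trp53inp1 reached 1.90 and 2.09 times in these cells, Pmaip1 1.85 and 2.01, Phlda3 1.68 and 1.97, Zmat3 1.61 and 2.14, Mdm2 1.54 and 1.78, and Bax 1.20 and 1.42, all with intervals above 1 in both libraries. These 7 of 9 genes stand against 2.76% of the 5838 genes found in as many cells as the 10 targets (8.44% to 58.7% after thinning), whose median was 1.00 in the smaller and 1.01 in the larger library. Aen (1.45, 0.907 to 2.19) and Bbc3 (1.09, 0.708 to 1.61) had intervals that held 1 in the smaller library, and values of 1.87 and 1.59 in the larger one with intervals above 1. Cells with a single Cdkn1a UMI had no gene with an interval apart from 1 in the smaller library, with ratios of 0.872 (Pmaip1) to 1.21 (Bbc3). In the larger library Phlda3 (1.10), Trp53inp1 (1.18), Aen (1.23) and Bax (1.08) had intervals above 1. Depth was equal by thinning, and differences in cell state within a cluster were not tested.

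**Figure D4:**
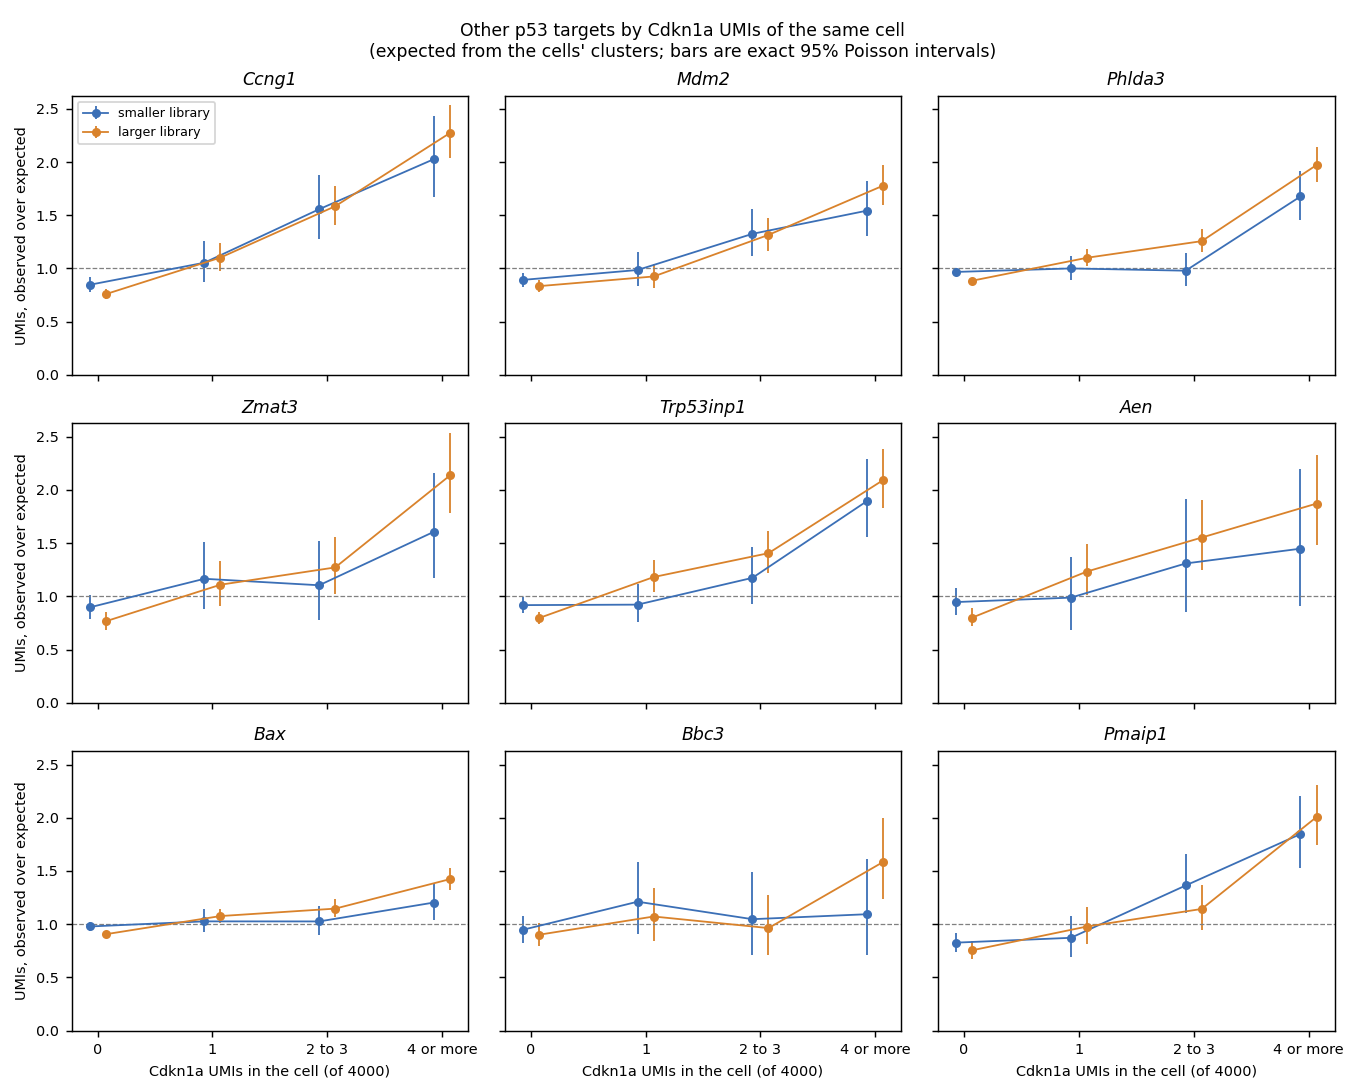
UMIs of each of the other 9 genes, observed over expected from the cells' clusters (y axis from 0), in cells with 0, 1, 2 to 3 and 4 or more Cdkn1a UMIs of 4000 (x axis), smaller library in blue and larger in orange, with exact 95% Poisson intervals. Ccng1 runs from 0.847 to 2.03 in the smaller and from 0.758 to 2.27 in the larger library, and Bax from 0.978 to 1.20 and from 0.905 to 1.42.

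The same was seen in pairs of genes counted as present or absent. Of the 45 pairs, 8 were found in the same cell more often than expected within clusters, with intervals above 1 in both libraries, and no pair less often. Over all 17044041 pairs of genes found in as many cells, 0.0689% were found together more often and 0.0413% less often. The median ratio over the 45 pairs was 1.11 in the smaller and 1.14 in the larger library, and over all pairs 1.00 in both. Cdkn1a was in 5 of the 8 pairs: with Ccng1 (1.27 and 1.35), Zmat3 (1.26 and 1.36), Trp53inp1 (1.18 and 1.35), Pmaip1 (1.19 and 1.21) and Mdm2 (1.15 and 1.18). Of all 5838 other genes in this range, 28 (0.48%) were found with Cdkn1a in this way, and these 5 are among them. The others were Ccng1 with Zmat3 (1.36 and 1.31) and with Phlda3 (1.13 and 1.09), and Trp53inp1 with Pmaip1 (1.45 and 1.31). Cdkn1a and Ccng1 occurred together in 235 cells of the smaller library where 185.3 were expected, and in 584 cells of the larger library where 431.5 were expected. Other random draws of the thinning gave 4 to 9 such pairs, so single pairs near the limit are uncertain. Without cluster as a stratum 12 pairs lay above 1 and 1 below.

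**Figure D5:**
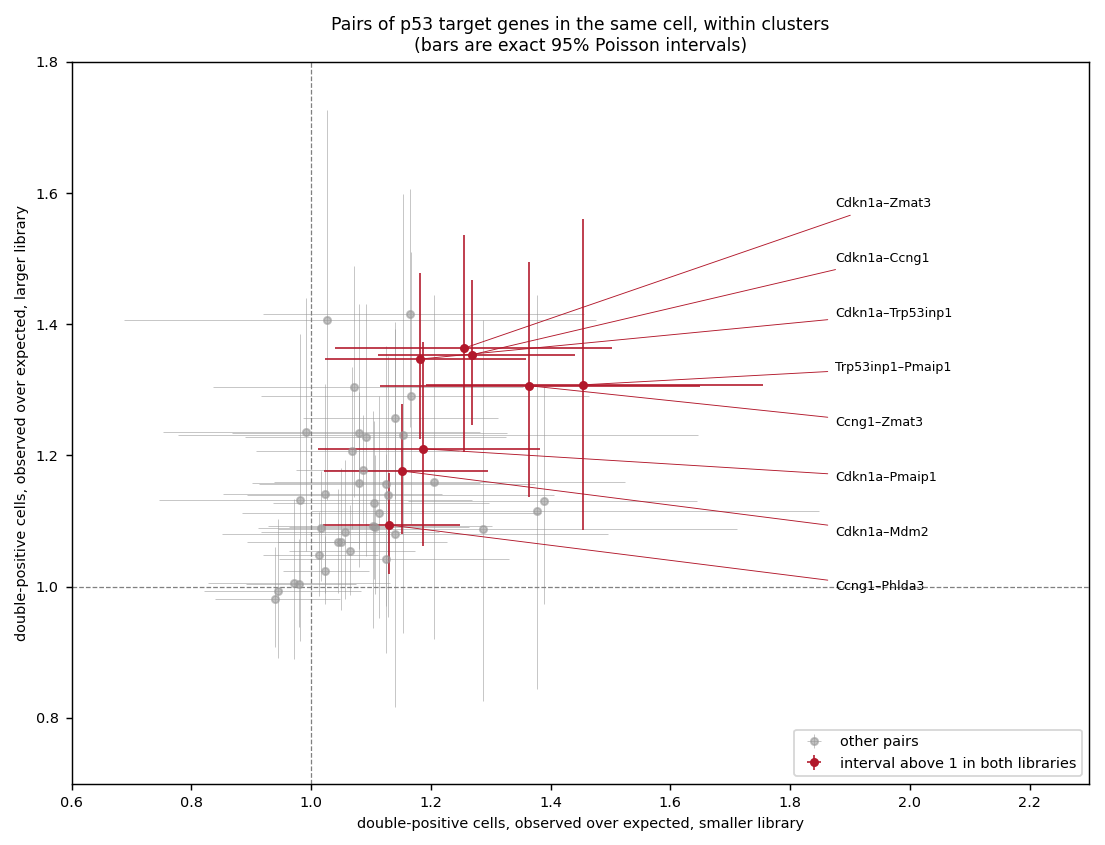
Observed over expected number of double-positive cells within clusters for the 45 pairs of genes, smaller library (x axis) against larger library (y axis), after thinning to 4000 UMIs, with exact 95% Poisson intervals and dashed lines at 1. The 8 pairs in red have intervals above 1 in both libraries, with ratios between 1.09 and 1.45.

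Within single clusters, the ratio for Cdkn1a with Ccng1 had intervals above 1 in both libraries in C1, C3 and C8. In C1 it was 1.51 (1.13 to 1.96) and 1.35 (1.12 to 1.62), in C3 1.83 (1.002 to 3.08) and 1.497 (1.04 to 2.09), and in C8 3.32 (1.52 to 6.29) and 1.66 (1.10 to 2.40). In the larger library alone it was also above 1 in C0 (1.499), C4 (1.58), C5 (1.398), C6 (1.45) and C7 (1.99). In C6 of the smaller library only 5 cells held both genes (1.24, 0.402 to 2.89). In tuft-like cells, which are high in Cdkn1a, it was 0.842 (0.481 to 1.37) and 0.926 (0.599 to 1.37), and in Post-Aire mTEC-like cells 1.18 (0.9495 to 1.46) and 1.02 (0.808 to 1.27). Differences between clusters in this ratio were not tested. Cdkn1a with Phlda3 also had intervals above 1 in both libraries in C1, at 1.59 (1.17 to 2.10) and 1.45 (1.20 to 1.74). The share of all gene pairs above 1 within single clusters was not counted. Counted per cell, the mean number of the 10 genes detected in C6 was 2.22 in the smaller and 3.12 in the larger library, and 7.27% and 22.4% of these cells had 5 or more of them. In Post-Aire mTEC-like cells the mean was 3.04 and 3.01, and 15.6% and 15.1% had 5 or more.

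Genes around the pathway differed both ways. Of 37 further genes (p53 itself with its kinases, relatives and inhibitors, and other known targets in arrest, apoptosis and DNA repair), 5 were higher past the limit in the larger library (13.5%, where 5.02% of all genes were) and 5 lower (13.5%, where 19.2% were). Their median log2 ratio was 0.00, that of all genes -0.05. Trp53, which encodes p53, was at 1.99 and 2.25 UMIs per 10000 (log2 ratio 0.17, 0.12 to 0.22), and was highest in the replicating cluster C7 (4.15 and 4.31). The higher genes were the cell cycle genes Psrc1 (1.03), Gtse1 (0.83) and Chek1 (0.58), which were highest in C8, C8 and C7, the DNA polymerase gene Polk (0.48) and the lysosomal gene Dram1 (0.37). The lower genes were the antiproliferative gene Btg2 (-0.89), the kinase genes Plk2 (-0.88) and Plk3 (-0.58), the p53 relative Trp73 (-0.60) and Gadd45a (-0.48). By group, 1 of 9 regulators, 2 of 15 arrest genes, 1 of 8 apoptosis genes and 1 of 5 repair genes were higher, and 1, 4, 0 and 0 were lower. The stress genes, of which 17 of 17 were lower, had a median of -0.94, and their part in the lower genes was not tested.

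Finally, the genes with the most similar distribution were looked up over the same 20 points (10 clusters in 2 libraries) among 12594 genes with at least 500 UMIs, by the Pearson correlation of log2 levels. For Cdkn1a they were Mkrn1 (0.88), Prr13 (0.88) and Pgpep1 (0.87), and for Ccng1 they were Rnf11 (0.83), Polk (0.81), which is one of the 37 further genes above, and Dcxr (0.80). Mdm2 was most like Ccdc184 (0.94), AW112010 (0.94) and Clic3 (0.93). Phlda3 was most like Myl12a (0.97), Rbms2 (0.95) and Lama3 (0.94), and Zmat3 like Gstt2 (0.89), Glipr1 (0.88) and Gm11588 (0.88). For Trp53inp1 the closest were Anapc16, Tmem106b and Dand5 (0.81, 0.81 and 0.80), for Aen Psma2, Thyn1 and Bnip3l (0.90, 0.87 and 0.87) and for Bax Dnajc6, Rab33a and Cnp (0.91, 0.91 and 0.91). Bbc3 was closest to Sspo, Rasd2 and N4bp2l1 (0.94, 0.94 and 0.94), and Pmaip1 to Ptgs2, Ap1g2 and Cebpg (0.97, 0.97 and 0.96). No gene of the 10 was among the 3 closest of another.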

How the data were processed

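The deposited matrices hold whole-number UMI counts per gene and cell barcode, made by the authors with Cell Ranger against mm10 after Fastp trimming. The matrix headers name version 5.0.1 and the processing notes 5.1, and the droplet chemistry is version 2 in the labels and version 3 in the methods. Counts were used as deposited. Genes found in at least 5 barcodes were counted as detected, and cells were filtered as described above. Clusters came from Seurat 5.3.0 (3000 variable genes per library, 2000 anchor features, 20 principal components, resolution 0.5), with 64 genes (the 10 targets, the 37 further genes and the stress genes) withheld. Levels are summed UMIs per 10000 of a library or cluster. A level at least 25% above the other (between libraries) and 2-fold (cluster against other cells, in both libraries) were counted over genes with at least 100 UMIs. Pattern correlations used log2 of the level plus 0.1. The intervals of log2 ratios combine the opposite ends of both exact Poisson intervals. Scrublet (scanpy 1.11.5) called 1 and 4 doublets, under 0.5% of cells, and so did not work as a caller; its scores were used only as an alternative. The background of pairs came from 1 draw of 4000 UMIs per cell over all genes. The ratio and thinning code was tested on simulated data. All 10 targets were named without exception, together with the 3 genes most similar to each and further pathway genes past the limit of 25%. Libraries were ordered as smaller and larger by their number of barcodes. The sample labels, whose conflict with the matrix names is stated above, did not enter the comparisons. The members and lists were chosen with earlier results of these data known.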

Additional observations from a re-analysis of the deposited data

Results flagged for a closer look

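Trp53inp1 differed in opposite directions between cell types: the log2 ratio of the larger over the smaller library was 0.91 in Aire+ mTEC-like cells (C6) and -0.71 in tuft-like cells (C9). Pmaip1 did the same, with 0.42 in C6 and -0.49 in the replicating cluster C7. The intervals of these values exclude 0, and the differences between the clusters themselves were not tested. The value of Trp53inp1 in C9 was -0.12 when the libraries were merged without integration. Pmaip1 went from 0.23 to 0.52 in C6 and from -0.60 to -0.24 in C7 over other settings, and fell under the limit in both.

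Trp53inp1 was also higher in barcodes outside the kept cells. In the 32 and 21 barcodes at or over the limit of 7500 detected genes it was at 1.15 UMIs per 10000 in the smaller and 1.44 in the larger library. In the 124 and 151 barcodes with enough genes but at least 15% mitochondrial UMIs it was at 0.865 and 1.19. The kept cells of the same libraries had 0.652 and 0.732.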

How the results depend on the processing

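Members were compared between libraries, and between clusters, under other filters, clusterings, scalings and depths. The 4 genes higher over all kept cells stayed 4 under every setting except a 1.5-fold limit, which left 0 higher and 0 lower. The 1 lower gene, Pmaip1, stood at the limit: the count was 0 with equal cluster composition, a minimum of 1000 detected genes, per-cell means, thinning, centring on the median of all genes, trimmed mean scaling and without C10, and over strata of cluster and stress level, a setting chosen after seeing the data, where its log2 ratio was -0.07 and that of Cdkn1a 0.84. Gene-cluster combinations between libraries, also chosen after seeing the data, went from 46 higher and 2 lower to 21 and 1 at 1.5-fold; the lower ones were 1 at resolution 0.3 and with 1 other seed, and 4 after thinning. The log2 ratio of Cdkn1a in C6 stayed between 1.89 and 2.93 over 14 settings, whereas in C4 it was 0.88 to 1.84 over 15. Against other cells, 27 combinations were lower at 1.5-fold in place of 14. Genes with a lower share of positive cells numbered 1 without thinning and with 2 other draws, in place of 0. Pairs found together numbered 13 without thinning and 4 with 1 other draw, in place of 8. The cause of these changes was not tested, beyond fewer combinations passing a higher fold. No paired analysis was possible because each condition had 1 library. Depth limits Bbc3, Aen, Zmat3 and Pmaip1 most, the genes with the fewest UMIs. Under 100 UMIs were found in 7 of 100 gene-cluster combinations, all of Pmaip1, Bbc3 or Aen and none of Zmat3.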
